A study of Rattus norvegicus with 11 samples.

Results

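The genes described here are the 4 opioid receptors and the 4 precursors from which opioid peptides are cut, measured in the medial prefrontal cortex (mPFC) of male rats aged 4 months. The receptors were Oprm1 (mu), Oprd1 (delta), Oprk1 (kappa) and Oprl1 (the nociceptin receptor), and the precursors were Penk1 (proenkephalin), Pdyn (prodynorphin), Pnoc (prepronociceptin) and Pomc (proopiomelanocortin). Members were the non-control probes that carry 1 of these gene names on the array, which gave 9 probes of 7 genes. No probe was named Penk1 or Penk, so the 2 probes named Penk-rs, whose RefSeq accession belongs to Penk, were added, for 11 probes of 8 genes among 41012 probes. One group of 6 rats had self-administered heroin, and the other group of 5 rats had received yoked saline infusions. Both groups had 14 days of abstinence and then a single extinction session in the former drug chamber, so the comparison is between rats with different histories and includes no untreated rats. Each rat gave 1 single-colour array, and the methods name 12 arrays of which 11 were analysed here.

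Opioid receptors couple to inhibitory G proteins, which lower cyclic AMP, open G-protein-gated potassium channels and reduce presynaptic calcium entry. Enkephalins act mainly at delta and mu receptors, dynorphins at the kappa receptor, beta-endorphin at the mu receptor, and nociceptin at Oprl1, which binds classical opioids poorly. Heroin acts through its metabolites at the mu receptor. In the cortex Penk1, Pdyn and Pnoc are made by local neurons, while Pomc is best known from the hypothalamus and pituitary. Penk1 and Pdyn are also abundant in the striatum, which lies close to the dissected block: Penk1 in neurons with D2 dopamine receptors, Pdyn in neurons with D1 dopamine receptors.

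Each probe is a DNA strand of 60 bases, and what it detects follows from where it lies in the transcript. The following 4 lie in coding sequence and are shown because they tie a signal to a peptide or a part of a receptor. Capitals mark the codons of Met-enkephalin in the Penk1 probe (bases 39 to 53) and the codons of the lysine pair near the end of beta-endorphin in the Pomc probe (bases 48 to 53). In the Penk1 probe the next codons encode arginine and phenylalanine, so the encoded sequence runs on past Met-enkephalin. The Oprm1 probe encodes part of the third intracellular loop of the mu receptor, and the Oprl1 probe part of the third transmembrane segment of the nociceptin receptor.
Penk1 probe, chr5:17509637-17509696: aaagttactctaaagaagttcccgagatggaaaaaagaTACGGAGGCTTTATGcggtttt
Pomc probe, chr6:26940572-26940631: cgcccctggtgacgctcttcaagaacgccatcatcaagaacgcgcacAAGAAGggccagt
Oprm1 probe, chr1:37571629-37571688: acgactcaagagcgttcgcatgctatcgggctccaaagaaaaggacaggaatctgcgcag
Oprl1 probe, chr3:170778631-170778690: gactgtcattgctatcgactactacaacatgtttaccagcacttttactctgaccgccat
Positions are those of the array files in rat build rn3. The Penk1 probe lies on the minus strand and the other 3 on the plus strand. The letters TACGGAGGCTTTATG occur in 1 of the 41012 probes, which is this one, searched on the printed strand alone.

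Whether a gene could be measured differed between the members, so detection comes first. Values are given in array medians: the background-subtracted signal of a probe divided by the median over all non-control probes of that array. Levels of different probes are not comparable, since each probe binds with its own efficiency. A probe counted as detected on an array where the scanner software scored at least 0.5 of its spots well above background. Of the 11 member probes, 7 were detected on all 11 arrays, and these 7 were tested: 1 probe each of Oprm1, Oprd1, Oprl1, Penk1, Pdyn, Pnoc and Pomc. The lowest signal that was well above background lay between 0.211 and 0.311 array medians, and the tested Oprm1 probe was on average 2.33 times this limit, so its values are the least secure of the 7. The Oprd1 probe was 11.2 times the limit and the Penk1 probe 67.3 times.

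**Figure D1:**
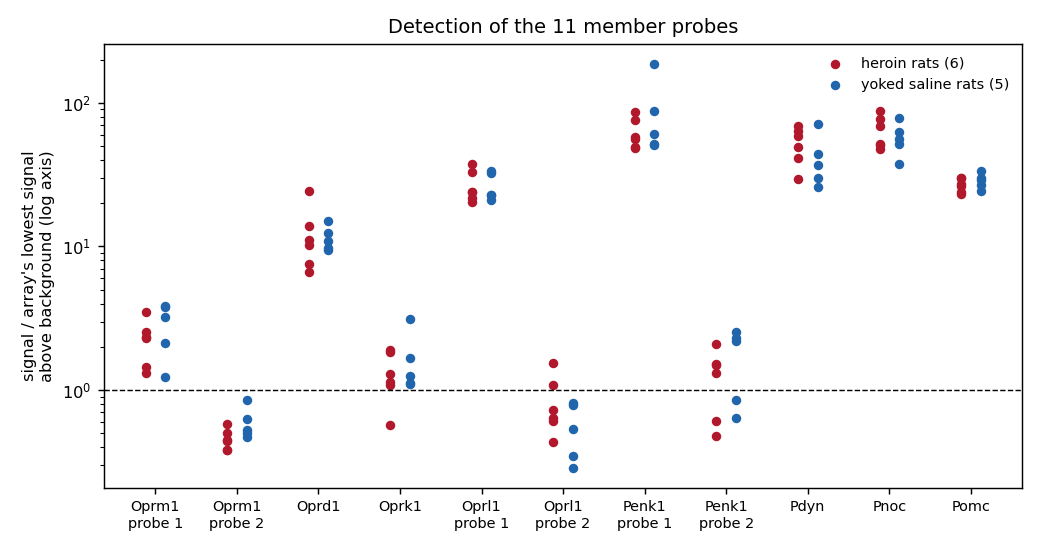
Signal of the 11 member probes on each array divided by the lowest signal scored well above background on that array (log axis, dashed line at 1). Each point is 1 rat, with heroin self-administering rats in red and yoked saline rats in blue. The 7 tested probes lie above the line in every rat, and the other 4 lie below it in some or all rats. Single values of these 4 lie well above the line, such as Oprk1 in saline rat 5 (0.717 array medians, limit 0.230).

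The remaining 4 probes had no secure level in some or all rats. The Oprk1 probe (chr5:14038275-14038334) was detected in 4 of 6 heroin and 3 of 5 saline rats. Its values in the saline rats 2 to 6 were 0.344, 0.275, 0.303, 0.717 and 0.352 array medians, and the heroin rats ran from 0.178 through a median of 0.325 to 0.573. Saline rat 5 was the highest of all 11 rats and the rest of the groups overlapped. The Oprl1 probe of the transmembrane segment was detected in 1 heroin rat and 0 saline rats. Its heroin values ran from 0.130 to 0.345 and its saline values from 0.0794 to 0.187. Since it was not well above background in any saline rat, only a bound exists there, and that bound lay above the heroin mean, so no fold is given. The Oprm1 probe near the end of the gene (chr1:37591411-37591470) was spotted 10 times and was not well above background on any array. The dimmer Penk1 probe (chr5:17514076-17514135) was detected in 4 heroin and 3 saline rats, with heroin values from 0.149 to 0.459 and saline values from 0.148 to 0.700. Fitted without the detection filter, the probes detected in some rats of both groups had log2 differences of -0.20 for Oprk1 and -0.28 for Penk1, and neither passed the thresholds given next.

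The arrays had median signals from 42.7 to 83.2, and 28185 to 33835 probes were detected on each. The fit covered 25555 probes detected in every rat, with limma, two-sided, by the thresholds of the methods, an unadjusted p under 0.02 and a difference of at least 1.4-fold. Of all tested probes 2.72% passed both, 1.79% as higher and 0.923% as lower in the heroin rats, and after Benjamini-Hochberg adjustment 0% reached an adjusted p under 0.05 by limma or by the methods' t-test, while 4729 and 4134 probes had an unadjusted p under 0.05. The split of calls moved with the scaling: 458 of 694 calls were higher in the heroin rats as reported, 218 of 457 after quantile normalization and 33 of 779 with the 75th percentile. Under array-median scaling the median log2 difference of all tested probes, heroin minus saline, was 0.18, and after quantile normalization it was 0.01. A difference near 0.18 under array-median scaling is therefore that of the array as a whole. Cortical identity was checked by glutamatergic markers: all 4 probes of Slc17a7, Camk2a and Nrgn were detected in every rat. In such tissue samples a change in the number of cells of a type and a change in RNA per cell cannot be told apart. Headers placed the heroin and saline rat of the same number in 1 scan, 5 such pairs in all, always with the heroin sample in position 4 and the saline sample in position 3. Position and group therefore cannot be told apart.

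No member probe passed both thresholds (0 of 7). An unadjusted p under 0.05 was found for 1 of the 7 by limma, that of Pdyn, and for 0 by the methods' t-test. The groups overlapped in all 11 member probes, where 1.8% of all tested probes did not overlap. After quantile normalization 0 of the 7 passed, beside 1.79% of all probes. One rat had much weight in this: without saline rat 5, Pdyn passed both thresholds, and so did 9.21% of all probes.

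**Figure D2:**
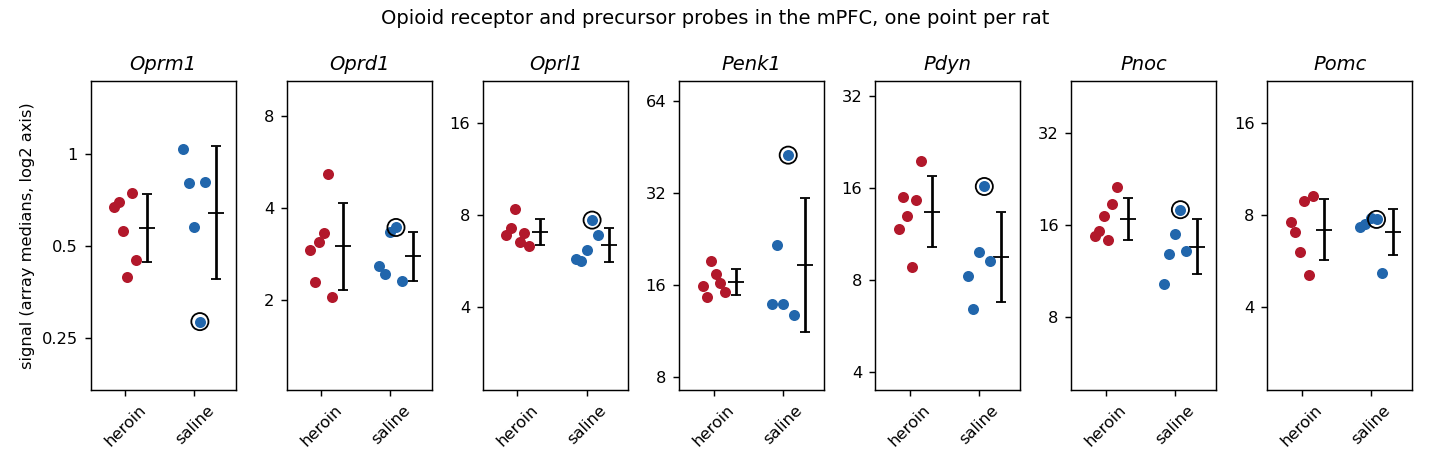
Signal of the 7 tested member probes in array medians (log2 axis, the same span in each panel), 1 point per rat, heroin in red (6 rats) and yoked saline in blue (5 rats). Black bars give the mean and SD of the log2 values. A ring marks saline rat 5, the highest saline rat for Oprd1, Oprl1, Penk1, Pdyn and Pnoc and the lowest for Oprm1. Its array ran high as a whole under this scaling. The median log2 value of all tested probes was 1.896 there and at most 1.774 in the other saline rats. After quantile normalization saline rat 5 stayed the highest saline rat for Penk1, Pdyn and Pnoc and the lowest for Oprm1. For Oprd1 saline rat 4 was then highest, and for Oprl1 saline rat 6.

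Among the receptors, Oprm1 is the target through which heroin acts. Its coding probe measured 1.04, 0.803, 0.576, 0.282 and 0.807 array medians in saline rats 2 to 6, and the heroin rats ran from 0.395 through a median of 0.615 to 0.744. All heroin values lay inside the saline range, of which saline rat 5 was the bottom. Its value of 0.282 was close to the detection limit of that array, 0.230. Heroin rat 4, at 0.395 against a limit of 0.300, was also close. The log2 difference, heroin minus saline, was -0.17 ± 0.28 (SE), with a 95% interval from -0.77 to 0.43 and a limma adjusted p = 0.699. The exact permutation test over the 462 divisions of the rats gave p = 0.628, two-sided, where the smallest possible p is 0.00216. The size turned on single saline rats. Without saline rat 5 the difference was -0.47 (unadjusted limma p = 0.0420, exact permutation p = 0.0857), and without saline rat 2 it was 0.00008. Without saline rat 5 and with the median tested probe of each array set equal, the Oprm1 difference of -0.72 passed both thresholds, as did 7.96% of all probes. Of those 2034 probes, 1947 were lower in the heroin rats. After quantile normalization the Oprm1 difference was -0.11 with all rats and -0.38 without saline rat 5, and neither passed. Within the 5 shared scans the heroin rat was lower in 4 and higher in 1, the pair with saline rat 5.

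Oprd1, the main receptor for enkephalins, measured 2.59, 2.43, 3.34, 3.46 and 2.31 array medians in the saline rats. The heroin rats ran from 2.05 through 3.01 to 5.19, the last being heroin rat 5, and both the highest and the lowest rat were heroin rats. The difference was 0.11 ± 0.21 on the log2 scale, with an interval from -0.34 to 0.56 (limma adjusted p = 0.752, exact permutation p = 0.695). It was negative without heroin rat 5 and under quantile normalization (-0.06).

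The nociceptin receptor Oprl1 had the smallest spread between rats of the tested members under array-median scaling. Its 10 spots per array gave 5.75, 5.64, 6.13, 7.69 and 6.90 array medians in the saline rats, and 6.33, 6.93 and 8.35 as the lowest, median and highest of the heroin rats. The pooled SD between rats of a group was 0.16 on the log2 scale. The heroin rats were 0.14 ± 0.13 higher, with an interval from -0.13 to 0.41 (limma adjusted p = 0.487, exact permutation p = 0.197), and 0.09 lower after quantile normalization (-0.09). Without saline rat 5 it was 0.21 (exact permutation p = 0.0476), and -0.09 after quantile normalization without that rat. With all rats, on either scaling, the whole interval lay inside a 1.4-fold difference.

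Among the precursors, Penk1 stood out by 1 rat, on its brighter probe. Its Met-enkephalin probe measured 13.9, 21.7, 13.8, 42.6 and 12.7 array medians in saline rats 2 to 6. The heroin rats lay close together, from 14.6 through a median of 16.1 to 19.2. Saline rat 5 had 2.74 times the median of the 10 other rats, and the log2 SD was 0.73 in the saline rats against 0.14 in the heroin rats. The difference was -0.19 ± 0.26 (interval -0.73 to 0.36, limma adjusted p = 0.640, exact permutation p = 0.693). Under this scaling the direction turned without saline rat 5, to 0.11, while after quantile normalization it stayed negative, at -0.43 with and -0.20 without this rat. The dimmer Penk1 probe did not show the rise in saline rat 5. It was not detected in that rat, where its value of 0.148 array medians was the lowest of all rats.

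Markers of striatal projection neurons were high in the same rat. Of 12 probes of 10 such genes, 6 were highest in saline rat 5. For comparison, saline rat 5 was highest for 2 of 12 interneuron probes, 2 of 6 microglial probes and 1 of 9 probes of hypothalamus and pituitary. In the remaining marker lists it was highest for 0 probes. Adora2a, the adenosine receptor that marks the enkephalin neurons of the striatum, was at 2.31 array medians there and between 0.508 and 0.869 in the other 10 rats, and its other probe was 2.82 times the median of the other rats. Rgs9, a regulator of G-protein signalling enriched in striatum, was at 13.3 against 3.03 to 5.48 elsewhere. Gpr6, an orphan receptor of the same neurons, was at 3.21 there, 3.86 times the median of the others, although it was not detected in 1 heroin rat. Drd2 (0.543) and Tac1 (24.0) were also highest in this rat, though by less. After quantile normalization Drd2 was still highest there, but Tac1 was highest in saline rat 6. The Drd2 probe was detected in only 4 heroin and 4 saline rats and was on average 1.41 times the detection limit.

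Other striatal markers were not highest in that rat. Drd1a, the D1 receptor, was at 0.825 in saline rat 5 and between 0.543 and 1.24 in all rats, and Ppp1r1b, which encodes DARPP-32, was at 2.05 within a range of 1.61 to 2.63. Summed over the 9 tested striatal probes, the signal was 74.0 in saline rat 5, 39.2 to 48.1 in the other saline rats and 49.2 to 59.3 in the heroin rats. Each of the 10 genes had a probe detected in some rats. The part of these markers in the Penk1 result was not tested.

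**Figure D3:**
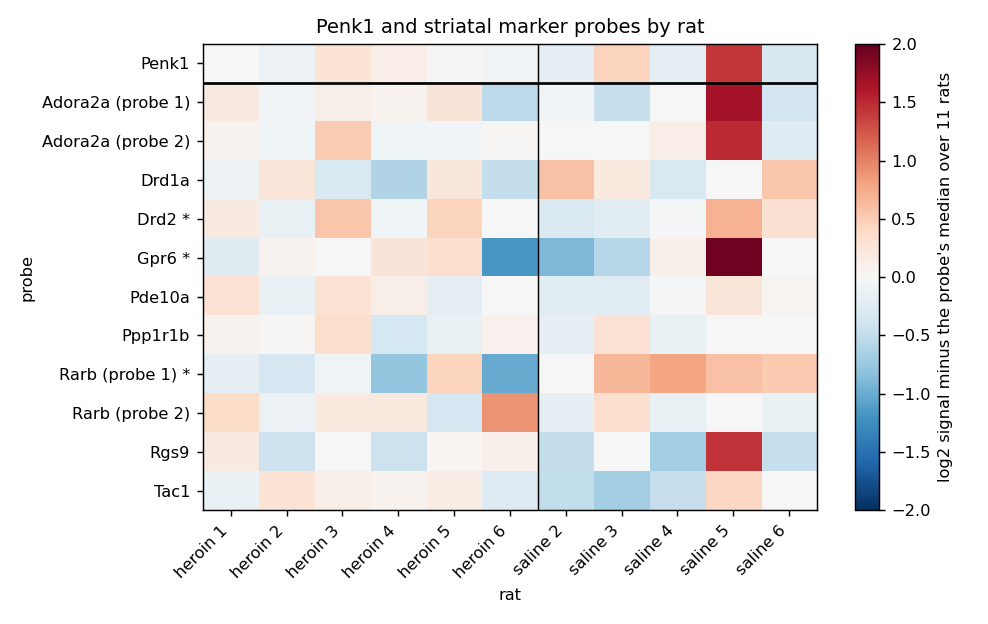
Log2 signal of the Penk1 probe (top row) and of 11 of the 12 striatal marker probes, each minus its median over the 11 rats, with rats in columns and an asterisk on probes not detected in every rat. Saline rat 5 is dark red in Penk1, both Adora2a probes, Gpr6 and Rgs9, and near white in Drd1a and Ppp1r1b.

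Across the 11 rats, with group means removed, Penk1 followed the mean of the striatal markers with Pearson's r = 0.87 (permutation p = 0.00498, adjusted over 7 genes p = 0.0212) and Spearman's rho = 0.60 (permutation p = 0.0558, adjusted p = 0.195). Leaving out the 2 rats farthest from the median of the markers, saline rats 5 and 4, lowered r to 0.42, and leaving out saline rat 5 alone lowered it to 0.27. The relation rested on that rat. Oprl1 had r = 0.74 (permutation p = 0.00605, adjusted p = 0.0212; rho = 0.68, permutation p = 0.0250, adjusted p = 0.175), which was 0.65 without the same 2 rats and 0.57 without saline rat 5 alone. After quantile normalization r was 0.83 for Penk1 and 0.34 for Oprl1. For Pdyn r was 0.62 (permutation p = 0.0445, adjusted p = 0.101), and 0.05 without saline rat 5. The other 4 genes had adjusted p-values between 0.101 and 0.965.

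Pdyn showed the largest difference of the tested members under array-median scaling, whereas after quantile normalization that of Penk1 was larger. Its probe (chr3:117196634-117196693) measured 8.26, 6.42, 9.92, 16.2 and 9.23 array medians in saline rats 2 to 6, and 8.84, 13.8 and 19.6 as the lowest, median and highest of the heroin rats. Of the 6 heroin rats, 5 lay above 4 of the 5 saline rats, and saline rat 5 and heroin rat 4 were the exceptions. The heroin rats were 0.49 ± 0.23 higher on the log2 scale, a 1.41-fold difference with a log2 interval from 0.00482 to 0.98 (unadjusted limma p = 0.0480, adjusted p = 0.269, exact permutation p = 0.0974). Relative to the median tested probe of each array the difference was 0.30, and after quantile normalization 0.25 (interval -0.21 to 0.71).

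The Pdyn call turned on single rats. Without saline rat 5 it was 0.68 ± 0.20, 1.61-fold (unadjusted limma p = 0.00493, adjusted p = 0.0625, exact permutation p = 0.0238), past both thresholds. Quantile normalization without the same rat gave 0.37 (limma adjusted p = 0.485). Without heroin rat 4 it was 0.61 and also past both thresholds, as were 2.62% of all probes. With arrays weighted by their consistency it was 0.55 and past both, as were 9.58% of all probes. Leaving out other rats lowered it, to 0.35 without saline rat 3 (exact permutation p = 0.210) and 0.38 without heroin rat 6 (exact permutation p = 0.175). Neither of these passed both thresholds. Heroin rat 6, the highest for Pdyn, was on the array with the lowest median signal (42.7). Within the shared scans, heroin minus saline was 0.85, 1.02, -0.17, -0.15 and 1.09 for rats 2 to 6, higher in 3 of 5.

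Pnoc, the nociceptin precursor, is made in the cortex by interneurons. It measured 10.3, 12.9, 15, 18 and 13.2 array medians in the saline rats and ran from 14.3 through 16.2 to 21.4 in the heroin rats. Every heroin rat was above 3 of the 5 saline rats, and 2 heroin rats were above all saline rats. The difference was 0.30 ± 0.16 (interval -0.04 to 0.64, unadjusted limma p = 0.0769, adjusted p = 0.290, exact permutation p = 0.0866), and the heroin rat was higher in 4 of 5 shared scans. Most of it was shared with the array as a whole: relative to the median tested probe it was 0.11, and after quantile normalization 0.06. Without saline rat 5 it was 0.40 (unadjusted limma p = 0.0192, exact permutation p = 0.0286), under the 1.4-fold threshold.

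Interneuron markers were read beside Pnoc. All 11 tested probes of 9 interneuron genes were higher in the heroin rats, with a median log2 difference of 0.21 against 0.18 for all probes, and 6 of the 11 were higher after quantile normalization, with a median of 0.07. Their summed signal ran from 736 to 1010 in the heroin rats and from 598 to 841 in the saline rats, and all 10 genes of the list were detected in some rats. Vip, the neuropeptide of an interneuron class, was the only one past both thresholds, at 82.6 to 116 in heroin and 58.7 to 81.8 in saline rats, with no overlap (0.49 ± 0.13, limma adjusted p = 0.263). After quantile normalization the Vip difference was 0.25 and no longer past the fold threshold. The part of these markers in the Pnoc values was not tested.

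Pomc, the source of beta-endorphin, differed least of the precursors under array-median scaling, whereas after quantile normalization Pnoc differed least. The beta-endorphin probe, with 10 spots per array, measured 7.31, 7.44, 7.81, 7.73 and 5.17 array medians in the saline rats, and ran from 5.09 through 7.3 to 9.26 in the heroin rats. The heroin rats surrounded the saline rats, with 2 above and 1 below all of them. The difference was 0.03 ± 0.17 (interval -0.34 to 0.40, limma adjusted p = 0.923, exact permutation p = 0.900), and -0.20 after quantile normalization. A probe that the array lists under a transcript cluster next to it on chromosome 6, between positions 26940694 and 26940754, is no member by name. It ran from 4.38 to 9.42 in heroin and from 3.69 to 6.86 in saline rats (0.20 on the log2 scale). Markers of hypothalamus and pituitary, where Pomc is best known, overlapped between the groups, with a summed signal of 4.47 to 6.83 over 4 tested probes in heroin and 4.76 to 6.56 in saline rats.

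**Figure D4:**
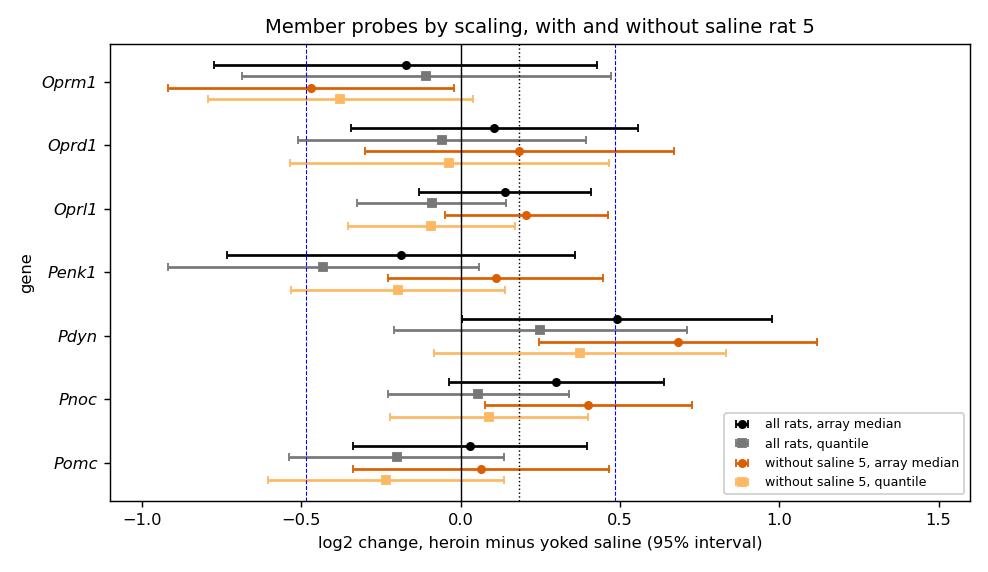
Log2 difference, heroin minus yoked saline, of the 7 tested member probes with 95% limma intervals, under array-median scaling (circles) and quantile normalization (squares), with all 11 rats (black, grey) and without saline rat 5 (orange shades). The dotted line is the median of all tested probes at 0.18 and the dashed blue lines mark 1.4-fold; with all rats no interval lies wholly beyond them, and Pdyn is the farthest to the right.

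Pomc and Oprl1 were spotted 10 times on each array. The pooled SD of these spots within an array was 0.05 for Pomc and 0.06 for Oprl1 on the log2 scale, and the SD between arrays of a group was 0.30 and 0.16. With 1 array per rat, the latter holds labelling and hybridisation as well as the rats, which cannot be told apart.

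Members were also compared with each other across rats, with group means removed, in 21 pairs. The closest pair was Pdyn and Pnoc, with r = 0.80 (permutation p = 0.00395, adjusted p = 0.0830) and rho = 0.80 (permutation p = 0.00457, adjusted p = 0.0960). Leaving out the 2 rats farthest from the median of Pdyn, saline rat 5 and heroin rat 6, lowered r to 0.50, and leaving out any single rat gave r between 0.68 and 0.87. Oprm1 and Penk1 ran opposite to each other (r = -0.73, permutation p = 0.0192, adjusted p = 0.202; rho = -0.44, permutation p = 0.184, adjusted p = 0.704), and r was -0.18 without saline rat 5 and heroin rat 4. Of the 21 pairs, 0 reached an adjusted p under 0.05. Without heroin rat 4, Oprm1 passed against Pdyn (r = -0.83) and against Pnoc (r = -0.85). These were the extremes: leaving out any single rat gave r from -0.83 to 0.06 for Oprm1 and Pdyn. For Oprm1 and Pnoc it gave r from -0.85 to -0.37.

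The gene-named probes whose pattern over the 11 rats was most like each member were found after quantile normalization and removal of group means, among 11159 probes, as a measure of likeness only. Penk1 was most like Clmn (r = 0.96) and Lrp6 (r = 0.90). Pdyn was most like Phf13 (r = 0.92) and Rab11a (r = 0.92), and Pnoc most like Kctd9 (r = 0.95) and Cltc (r = 0.95). For Pomc they were Mmp23 (r = 0.96) and Sox9 (r = 0.95). Among the receptors, Oprm1 was like Acin1 (r = 0.98), Oprd1 was closest to Adcy7 (r = 0.95) and Tcof1 (r = 0.94), and Oprl1 to Oat (r = 0.98) and B3gnt6 (r = 0.96). The names Clmn, Lrp6, Phf13, Kctd9, Tcof1 and B3gnt6 are predicted genes on the array.

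Genes that process the precursors or carry the receptor signal were grouped in 8 lists, and the smallest adjusted p that limma gave to any tested probe was 0.263. Of 111 probes, 101 were tested and 4 passed both thresholds, 3.96% against 2.72% of all probes. The 4 lay in 3 genes, Pcsk1, Gnai1 and Kcnj3. Over the lists together the median log2 difference was 0.22 against 0.18 for all probes, and after quantile normalization it was -0.0049, with 3 probes past both thresholds. The groups did not overlap for 4 probes, 3.96% against 1.8% of all probes, those of Gnb2, Gnb5, Npepps and Pcsk2; flagged spots left Npepps with 5 heroin and 2 saline values and Gnb5 with 4 saline values. Without saline rat 5, 10 probes passed (9.90%).

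**Figure D5:**
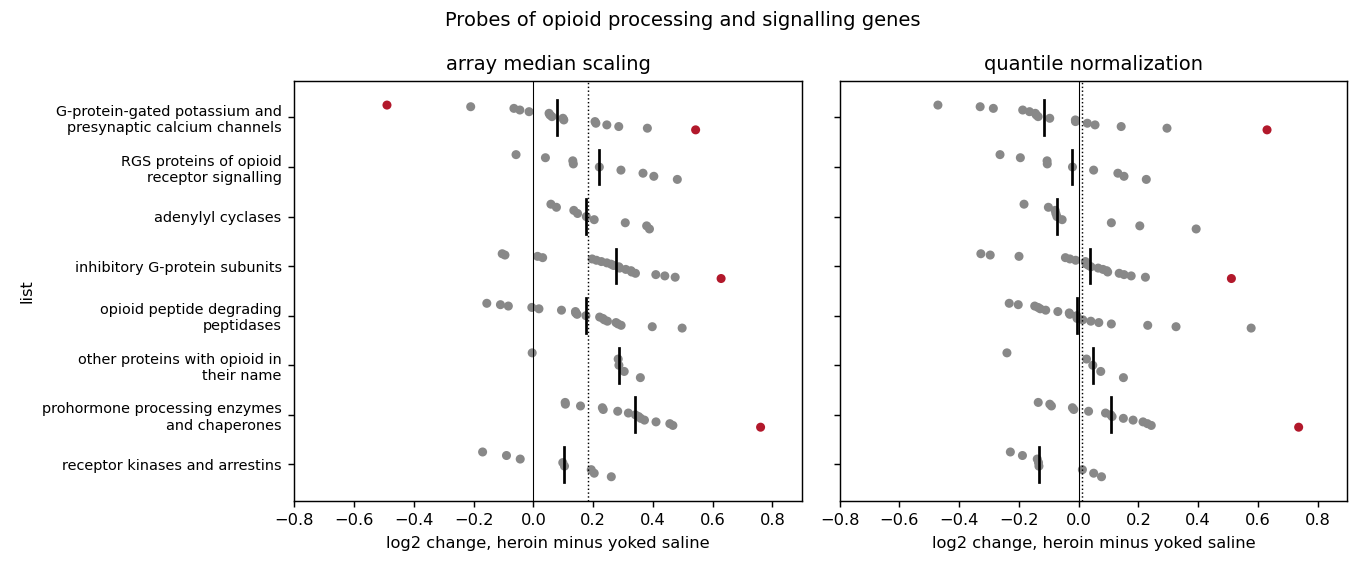
Log2 difference, heroin minus yoked saline, of each of the 101 tested probes by list, under array-median scaling (left) and quantile normalization (right); red points passed both thresholds, black bars are list medians and dotted lines the median of all tested probes. The prohormone processing list has the highest median on both sides, and Pcsk1 is its red point.

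The prohormone processing list holds enzymes that cut precursors, such as Pcsk1, Pcsk2 and Cpe, and also genes that modify the peptides (Pam, Qpct), inhibit a convertase (Pcsk1n) or assist one (Scg5). All 15 tested probes of 11 genes were higher in the heroin rats, with a median of 0.34, and 10 of 15 were higher after quantile normalization, with a median of 0.11 against 0.01 for all probes. An unadjusted p under 0.05 was found for 9 of the 15 before and 1 after quantile normalization, where all 25555 tested probes gave 4729 and 1971, and 1 probe was past both thresholds on either scaling. That probe was 1 of 2 for Pcsk1, the convertase PC1/3 that makes the first cuts. It measured 0.752, 0.904, 0.888, 1.75 and 1.30 array medians in the saline rats and ran from 1.20 through 1.88 to 2.23 in the heroin rats. Heroin rats 4 and 6 lay within the saline range and saline rats 5 and 6 within the heroin range. The difference was 0.76 ± 0.22, 1.69-fold (limma adjusted p = 0.263), and 0.74 after quantile normalization. The other Pcsk1 probe differed by 0.34, and by 0.18 after quantile normalization, so the probes differ in size. Pcsk2, the convertase PC2 that releases the small peptides, had 15.7 to 21.6 in heroin and 11.3 to 14.2 in saline rats on 1 probe, with no overlap. Its difference of 0.47 was under 1.4-fold, and 0.23 after quantile normalization, and its other probe differed by 0.41. Pcsk6, a convertase of the secretory pathway, differed by 0.46.

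Of the inhibitory G-protein subunits, 18 of 20 probes were higher, with a median of 0.28 (0.04 after quantile normalization, 14 higher). Gnai1, an alpha subunit that inhibits adenylyl cyclase, passed both thresholds with 0.63 ± 0.21 (limma adjusted p = 0.263), and 0.51 after quantile normalization. Saline rats had 1.48, 1.44, 2.04, 3.72 and 1.86 array medians and heroin rats 2.66 to 3.47. Saline rat 5 was above every heroin rat and the other saline rats were below every heroin rat, and without it the difference was 0.86. The beta subunits Gnb5 (0.44 and 0.33 on 2 probes) and Gnb2 (0.34) stayed under 1.4-fold.

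In the list of G-protein-gated potassium and presynaptic calcium channels, 11 of 16 probes were higher, with a median of 0.08 (-0.12 after quantile normalization). Both calls were for Kcnj3, the GIRK1 potassium channel, and they had opposite signs. The array places the lower probe on chromosome 3 and the other 3 Kcnj3 probes on chromosome 8, and both called probes were close to the detection limit, at 2.82 and 2.68 times its level. One probe was lower by 0.49 ± 0.18 (-0.49, limma adjusted p = 0.263), with 0.471 to 0.858 array medians in heroin and 0.663 to 1.08 in saline rats. Another was higher by 0.54 ± 0.20 (limma adjusted p = 0.263), with 0.455 to 1.11 and 0.495 to 0.654. The remaining 2 Kcnj3 probes differed by 0.10 and -0.05, so no direction is given for the gene. After quantile normalization 1 of the 2 calls, the higher one, remained past both thresholds. Cacnb4, a calcium channel subunit, differed by 0.38 on 1 probe and by 0.05 on the other, and Cacna1b, the N-type channel, by 0.29.

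The other 5 lists held no call. Peptidases that break down opioid peptides had 15 of 19 probes higher and a median of 0.18, with Thop1 at 0.40 and 0.29 on its 2 probes and Nln at 0.24. Ece1 was at 0.50 on its dimmest probe, at 2.93 times the detection limit, and its other probes differed by less. Receptor kinases and arrestins, which switch the receptors off, had 5 of 8 higher and a median of 0.10, with Grk6 at 0.26, Grk5 at 0.19 and Adrbk2 at -0.17. All 9 adenylyl cyclase probes were higher, with a median of 0.18, Adcy3 at 0.39, Adcy2 at 0.38 and Adcy1 at 0.31, the last falling to 0.16 without saline rat 5. RGS proteins, which shorten G-protein signals, had 8 of 9 higher and a median of 0.22, with Rgs7 at 0.48, Rgs4 at 0.40 and 0.37 and Rgs19 at 0.22 and 0.13 on 2 probes each. The 5 probes of other proteins with opioid in their name had a median of 0.29, with Ogfr, the opioid growth factor receptor, at 0.30, Oprs1, the sigma receptor, at 0.29 and Opcml, a cell adhesion molecule, at 0.36. After quantile normalization the medians of these 5 lists lay between -0.13 and 0.05.

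Another 4 probes belong to member genes by the accession or description they carry, though not by name, and none decides a result above. An Oprl1 probe at chr3:170778847-170778906 was detected in every rat, with 2.92 to 4.61 array medians in heroin and 2.42 to 4.18 in saline rats (0.11 on the log2 scale). A further Oprl1 probe was detected in 5 heroin and 5 saline rats, with 0.337 to 0.491 and 0.364 to 0.647, and went the other way, with a log2 difference of -0.42 and 3 heroin rats below all saline rats. A probe for a variant of the mu receptor was detected in 3 heroin and 4 saline rats, and a probe for the start of Oprm1 was not well above background in any rat.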

How the data were processed

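RNA of the mPFC, cut from 4.2 to 2.2 mm anterior of bregma per the labels, was labelled with Cy3 from 500 ng and hybridised to 1 Agilent array per rat. The authors deposited signal intensity per spot from Feature Extraction (9.5.1.1 per the file headers), corrected for background but not scaled between arrays. A second deposited file, made by the authors in GeneSpring, gives for 23670 probes a ratio to the array's 50th percentile and to the gene's median; it served as an alternative and covers 6 of the 7 tested member probes.

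Starting from the intensities, spots with a non-uniformity or population outlier mark were dropped, signals under 5 were raised to 5 and scaled to the 50th percentile of the non-control probes, log2 was taken and the spots of a probe were averaged. Probes detected on all 11 arrays with a usable spot on at least 2 arrays per group were fitted with limma (3.58.1, R 4.3.3), with Benjamini-Hochberg adjustment over 25555 probes. The methods' thresholds were kept, and their test for unequal variances served as an alternative. Single probes were tested by exact permutation, and correlations by permutation with 100000 resamples. Fits were tested on simulated data. The p-values measure the spread between arrays, 1 per rat, which holds labelling and hybridisation as well as the rats. The number of arrays limits the precision.

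The members and the lists of pathway and marker genes were chosen with earlier results of these data known. Of the lists, 4 genes had no probe. Single values of some genes are not reported here. A member gene was led by its brightest probe, and of each list the text names calls and up to 3 genes with the smallest p. Alternatives were other scalings and background corrections, the deposited ratios, other filters and tests, array weights, blocks and leaving out each rat. Subtraction of the median of the tested probes, and quantile normalization combined with the block or without saline rat 5, were chosen after seeing the data. Exon and untranslated region of each probe were not analysed here.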

Additional observations from a re-analysis of the deposited data

Results flagged for a closer look

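Within the 34 groups of values examined (the 11 member probes, the 5 list probes past both thresholds and the mean of the striatal markers, in each group of rats), 3 held a rat far from the others. By chance about 5% of such groups would. For Pomc, saline rat 6 was at 5.17 array medians and the nearest other saline rat at 7.31, a gap of 0.840 of the range of the saline rats on the log2 scale. For Oprk1, saline rat 5 was at 0.717 and the next at 0.352, a gap of 0.742 of the range, on a probe that was well above background in 3 of the 5 saline rats. For the mean of the 9 tested striatal marker probes, saline rat 5 was at 4.44 (2 to the power of the mean log2 value) and the next saline rat at 2.74, a gap of 0.826 of the range. Penk1 in saline rat 5 did not meet this rule, because saline rat 3 lay between it and the others.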

How the results depend on the processing

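The number of member probes past both thresholds, 0 in the values reported, was 1 with array weights (Pdyn, limma adjusted p = 0.0379, where 8156 of all probes had an adjusted p under 0.05), 1 without saline rat 5 after subtraction of the median of the tested probes (Oprm1), 0 or 1 with any single rat left out (Pdyn without saline rat 5 or heroin rat 4), and 0 in every other setting run. The number of pathway probes past both thresholds, 4, became 2 with scaling to the 75th percentile, to the median of detected probes or with the median of the tested probes subtracted, 0 with normexp and with the methods' t-test, 13 with array weights, and 2 with the replicate block and quantile normalization. It ran from 2 to 10 with 1 rat left out (2 without saline rat 2 or 3, 7 without heroin rat 2, 8 without saline rat 4 and 10 without saline rat 5). By exact permutation 0 of the 7 members had p under 0.05, and 0 to 3 with 1 rat left out, the 3 being without saline rat 5, where 8789 of all 25548 probes had an unadjusted limma p under 0.05. Among members 0 of 21 correlations passed adjustment, 1 with group means kept (Pdyn and Pnoc) and 0 to 2 with 1 rat left out (2 without heroin rat 4, 1 without saline rat 2 or 3). With striatal markers 2 of 7 passed, 1 after quantile normalization, 0 with group means kept, and 0 to 5 with 1 rat left out (0 without saline rat 5, 1 without saline rat 2, 5 without saline rat 4). Over all probes 694 passed both thresholds, from 123 with normexp to 2447 with array weights, 309 with the methods' t-test, 457 with quantile normalization and 342 to 2352 with 1 rat left out.

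Signs turned for small differences. Oprd1, Oprl1 and Pomc differed by -0.112, -0.0793 and -0.189 with the 75th percentile, -0.0586, -0.0911 and -0.201 with quantile normalization, -0.0849, -0.0520 and -0.162 with the median of detected probes, -0.0428, -0.0744 and -0.21 with the replicate block and quantile normalization, and -0.0853, -0.0524 and -0.162 with the median of tested probes subtracted. Without saline rat 5 they were -0.0352, -0.0918 and -0.235 with quantile normalization and -0.0647, -0.0421 and -0.185 with the median subtracted. With 1 rat left out, Oprm1 ran from -0.47 to 0.00008, Oprd1 from -0.0521 to 0.22, Penk1 from -0.33 to 0.11 and Pomc from -0.0810 to 0.13, while Oprl1 (0.09 to 0.21), Pdyn (0.35 to 0.68) and Pnoc (0.20 to 0.40) stayed positive. The cause was not tested.

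Rats with the same number shared a scan, but their deviations from the group means correlated between -0.24 and 0.38, above 0.1 in only 2 of 5 pairs, and 1 of 5 heroin rats correlated best with its own number. The replicate block, in which heroin rat 1 has no partner and so adds nothing to the difference, gave 0 member calls, 4 pathway calls and 806 calls over all probes against 694, with Pdyn at 0.53. With the scan as a random block there were 0 member and 637 calls over all probes. The Oprm1 probe, near the detection limit, and the 4 probes not detected in every rat are limited by signal over background.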

Other observations

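Markers of other cells in the block were read for all lists. Astrocyte markers had 6 of 6 tested probes higher in the heroin rats, with a median log2 difference of 0.23, and microglial markers 4 of 4, with 0.20. Glutamatergic markers had 4 of 4 higher, with 0.29, led by Camk2a, a kinase of excitatory neurons, at 0.49 on 1 probe, which was 0.31 without saline rat 5, and 0.28 on the other. Oligodendrocyte markers had 6 of 10 higher and a median of 0.03, and markers of endothelium and blood 2 of 4 and 0.03. Hypothalamus and pituitary markers had 1 of 4 higher and a median of -0.26, and striatal markers 5 of 9 and 0.01. After quantile normalization these medians were -0.02, -0.03, 0.09, -0.21, -0.17, -0.33 and -0.12 in the order given. None of these 7 lists held a probe past both thresholds.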
